A study of Mus musculus with 6 samples.

Results

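Globin and erythroid genes are described here in 6 RNA-seq libraries of sorted myeloid leukemia cells from mouse spleen. The 8 genes are the adult beta globins Hbb-bs and Hbb-bt, the adult alpha globins Hba-a1 and Hba-a2, the erythroid heme enzyme Alas2, the erythroid transcription factors Klf1 and Gata1, and the red cell anion exchanger Slc4a1. They were taken from 29374 genes with any estimated read, and all 8 were among the 16656 genes tested between genotypes. They were chosen by name with their values in these libraries already known, so every difference between genotypes given for them is a description with no test.

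The study crossed mice carrying an Mll-AF9 knock-in allele, a fusion oncogene that causes acute myeloid leukemia, with mice lacking Rpl22, the gene of a large-subunit ribosomal protein. Splenocytes of tumor-bearing animals were sorted as CD11b+Gr1+ cells, a gate for granulocytes and monocytes, and poly(A) RNA was sequenced from 3 Rpl22+/+ and 3 Rpl22-/- libraries. Libraries of both genotypes carried Mll-AF9, so no sample without leukemia was compared, and the Rpl22 mice were on the C57BL/6 background. The study's methods state that its Rpl22+/+ and Rpl22-/- mice were young adults and that Mll-AF9 mice were killed at signs of disease or at set times, and no label gives an age for these libraries. For the leukemia explants 1 mouse per genotype is named in the study's text, and no label ties the libraries to animals, so the 3 replicates of a genotype may share one. P-values therefore measure the spread between libraries, which may be technical.

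Hemoglobin carries oxygen as a tetramer of paired alpha and beta globin chains, each holding 1 heme. Erythroblasts make the chains and the heme together, under the transcription factors GATA1 and KLF1, and lose their nucleus before they enter the blood. The mouse spleen holds a red pulp through which blood is filtered, and it remains a site of red cell production in adult mice, above all under anemia or other stress.

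The members differ in the letters just before their start sites. RefSeq promoter entries on the GRCm38.p6 build matched 7 of the 8 genes, and Slc4a1 had none. The 250 bases before the start are shown for 4 of them, because the beta globins differ from each other, Hba-a2 stands for a near-identical pair and Alas2 for the heme pathway. They lie at chr7:103827929-103828178 on the minus strand (Hbb-bs), chr7:103813924-103814173 on the minus strand (Hbb-bt), chr11:32296242-32296491 on the plus strand (Hba-a2) and chrX:150547167-150547416 on the plus strand (Alas2). Capitals mark matches to 4 patterns.
Hbb-bs: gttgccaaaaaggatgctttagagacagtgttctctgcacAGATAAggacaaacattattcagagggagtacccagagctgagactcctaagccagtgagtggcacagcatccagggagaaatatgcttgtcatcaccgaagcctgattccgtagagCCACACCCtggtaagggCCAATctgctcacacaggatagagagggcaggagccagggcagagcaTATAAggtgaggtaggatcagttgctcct
Hbb-bt: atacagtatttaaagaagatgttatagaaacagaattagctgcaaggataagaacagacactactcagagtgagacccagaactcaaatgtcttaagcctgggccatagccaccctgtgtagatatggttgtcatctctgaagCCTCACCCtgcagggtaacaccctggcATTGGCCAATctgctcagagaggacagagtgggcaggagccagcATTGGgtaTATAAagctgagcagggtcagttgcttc
Hba-a2: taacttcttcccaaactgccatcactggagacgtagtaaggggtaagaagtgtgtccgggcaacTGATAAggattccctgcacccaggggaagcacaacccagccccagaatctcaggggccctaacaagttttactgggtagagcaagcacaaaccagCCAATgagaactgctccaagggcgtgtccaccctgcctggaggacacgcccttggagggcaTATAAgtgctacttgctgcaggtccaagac
Alas2: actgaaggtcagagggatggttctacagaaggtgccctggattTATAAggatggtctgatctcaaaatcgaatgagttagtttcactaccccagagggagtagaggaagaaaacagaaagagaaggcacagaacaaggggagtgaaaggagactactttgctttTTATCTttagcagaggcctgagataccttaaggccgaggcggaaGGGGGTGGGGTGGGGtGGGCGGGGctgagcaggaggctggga

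The patterns were GATA words (the letters GATA with an A or T just before and an A or G just after, both strands), a CACCC box (CCNCNCCC, both strands), CCAAT (both strands, so ATTGG as well) and TATAA (the gene's strand only). In the printed windows matches of different patterns did not overlap, while CACCC matches of Alas2 overlapped each other. A GATA word stood in 5 of the 7 windows, those of Hbb-bs, Hba-a1, Hba-a2, Alas2 and Klf1, against 26.5% of all 32851 promoter windows of that length. The CACCC box pattern was matched in 4 of 7, those of Hbb-bs, Hbb-bt, Alas2 and Gata1 (45.9% of all windows). That pattern can match without the letters CACCC and can miss them, as in the printed Hba-a2 window, where they stand unmarked. CCAAT was found in 5 of 7 (33.8% of all windows). TATAA was found in the 4 globins and Alas2 (16.0% of all windows), beginning 27 to 30 bases before the start in the globins and 207 bases before it in Alas2. These matches describe letters and not binding. The Hba-a1 and Hba-a2 windows aligned with 0 mismatches and 6 gap positions, and the transcripts of both genes with 537 identical bases and 1 mismatch beside 177 gap positions. Reads cannot be split with certainty between such copies. Hbb-bs and Hbb-bt differed more, with 39 mismatches and 586 identical bases between their transcripts.

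The libraries held 35828500 to 102866127 estimated reads each, with the lowest total in Rpl22-/- replicate 1. Rpl22 itself was at 148, 235 and 152 CPM (counts per equal library size, with sizes adjusted for composition by TMM) in Rpl22+/+ and at 58.3, 89.9 and 73.5 CPM in Rpl22-/-, so it was lower but not absent. Myeloid genes were abundant in both genotypes. S100a9, a neutrophil calcium-binding protein, stood at 66735 to 73834 TPM (transcript abundance scaled for length to the same sum in every library) in Rpl22+/+ and 49775 to 58703 TPM in Rpl22-/-. Itgam, which encodes CD11b, was at 491 to 562 TPM and 245 to 328 TPM, and Ly6g, one of the antigens that Gr1 antibodies bind, at 236 to 259 TPM and 18.8 to 27.8 TPM. Over genes averaging 50 counts or more, Rpl22+/+ replicate 2 had a chi-square per degree of freedom of 528.2 and 460.4 against the other Rpl22+/+ libraries. Those libraries were at 21 against each other, and pairs of Rpl22-/- libraries were at 134 to 183.1. Of all genes, 27.6% had an adjusted p under 0.05 between genotypes and 17.5% were called, with 8.93% up and 8.54% down in Rpl22-/-, where a call is an adjusted p under 0.05 (edgeR quasi-likelihood test, Benjamini-Hochberg over all genes tested) with a change over 1 on the log2 scale. The median log2 change over all genes was 0.07, and 0.19 with no composition factor.

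Of the 8 members, 6 were called higher and 0 lower, against the 8.93% of all genes called higher. The same 6 had groups that did not overlap, which held for 23.9% of all genes in that direction and 46.1% in either. Members were picked on this contrast, so neither count is read further. Because these are bulk samples, fewer cells of a type and less RNA per cell cannot be told apart, and the same holds for more cells and more RNA per cell.

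**Figure D1:**
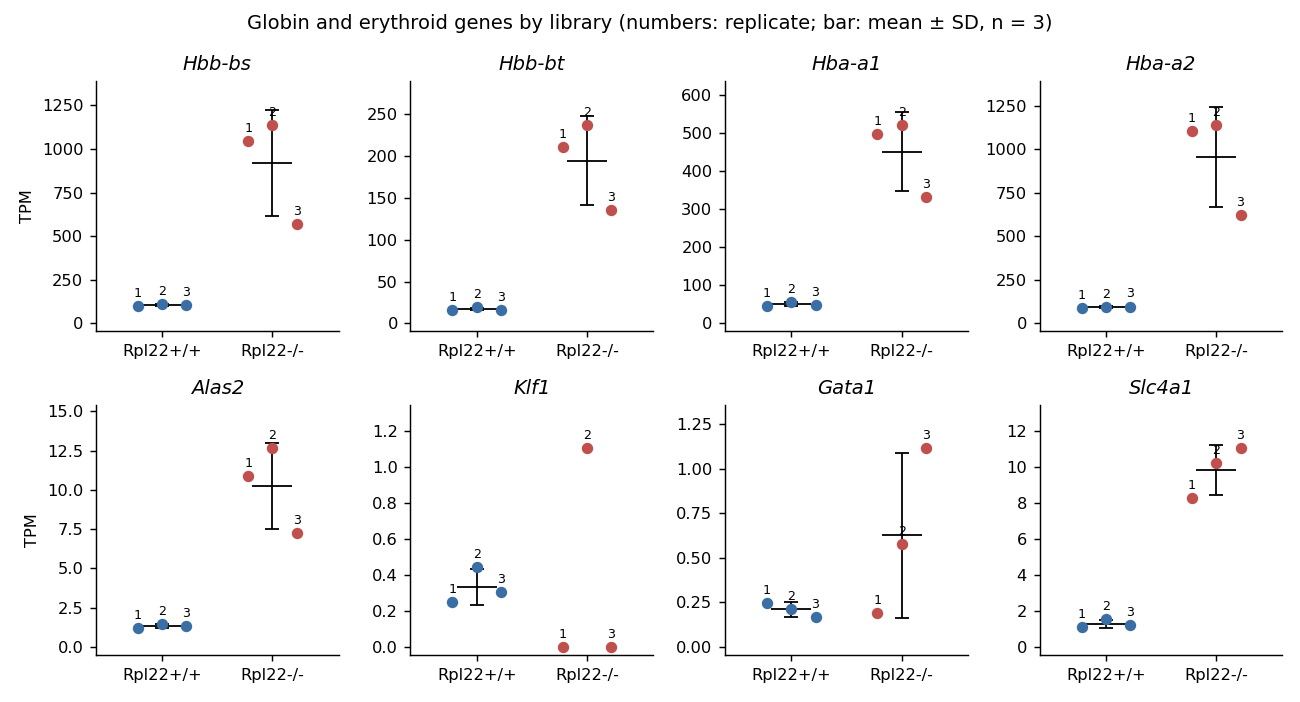
TPM of the 8 genes (each panel has its own linear axis) in the 3 Rpl22+/+ (blue) and 3 Rpl22-/- (red) libraries, with the replicate number at each point and mean ± SD as black bars, which are left out for Klf1 in Rpl22-/- because 2 of its libraries are at 0. The globins, Alas2 and Slc4a1 separate by genotype, and replicate 3 is the lowest Rpl22-/- library for the globins and Alas2 but the highest for Gata1 and Slc4a1.

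Both beta globins were higher in every Rpl22-/- library. Hbb-bs, the major adult beta globin here (chr7:103475741-103477303, minus strand, positions of genes on GRCm39), stood at 98.3, 113 and 104 TPM in Rpl22+/+ and at 1045, 1139.7 and 570.1 TPM in Rpl22-/-. Replicate 3 was the lowest of the Rpl22-/- libraries yet lay well above the highest Rpl22+/+ library. The means were 105 ± 7.44 and 918 ± 305 TPM (SD, n = 3), and the fitted log2 change was 3.05 ± 0.33 (SE). Hbb-bt, the other adult beta globin (chr7:103461731-103463203, minus strand), was at 16.2, 19.1 and 16.2 TPM and at 211, 238 and 136 TPM. Among the Rpl22-/- libraries its order was that of Hbb-bs, and its log2 change was 3.41 ± 0.31 (SE).

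The alpha globins followed the beta globins. Hba-a2 (chr11:32246489-32247298, plus strand) was at 85.5, 95 and 96.4 TPM in Rpl22+/+ and 1104, 1142 and 624 TPM in Rpl22-/-, a log2 change of 3.29 ± 0.30 (SE). Hba-a1 (chr11:32233511-32234465, plus strand) was at 46.2, 56.6 and 48.1 TPM and at 498, 522 and 333 TPM, a log2 change of 3.05 ± 0.29 (SE). Neither gene's groups overlapped, and the lowest Rpl22-/- library was again replicate 3. Nearly all of these reads sat on 1 transcript per gene. For Hba-a1 a second transcript of 494 bases took 0 to 6.75% of its reads in Rpl22+/+ and 3.12 to 6.24% in Rpl22-/-, ranges that overlapped.

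Summed over the 4 globin genes, which avoids the uncertain split within a pair, the level was 246, 284 and 264 TPM in Rpl22+/+ and 2859, 3042 and 1662 TPM in Rpl22-/-. The sum was 9.52 times higher in Rpl22-/- on the TPM scale and 8.91 times higher in CPM (98.4 ± 22.6 against 876 ± 286 CPM, SD, n = 3). Even so, globin was a small part of the RNA. It took 0.00821% to 0.0104% of all estimated reads in Rpl22+/+ and 0.0582% to 0.113% in Rpl22-/-. The 95% Wilson interval of the lowest Rpl22-/- share was 0.0577% to 0.0587%, that of the highest Rpl22+/+ share 0.0102% to 0.0106%, and both cover counting error only. Leaving out any single library, Rpl22+/+ replicate 2 included, kept the log2 ratio of summed CPM between 2.93 and 3.39.

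The makeup of the globin pool differed less between genotypes than its amount. The ratio of alpha to beta TPM was 1.15, 1.15 and 1.21 in Rpl22+/+ and 1.28, 1.21 and 1.36 in Rpl22-/-, so the groups did not overlap, although replicate 3 of the first and replicate 2 of the second were equal after rounding. Hba-a2 made up 62.7% to 66.7% of alpha TPM in Rpl22+/+ and 65.2% to 68.9% in Rpl22-/-, ranges that overlapped. Hbb-bt took 14.2%, 14.4% and 13.5% of beta TPM in Rpl22+/+ and 16.8%, 17.3% and 19.2% in Rpl22-/-. That share was higher in all 3 Rpl22-/- libraries without overlap, and neither this difference nor that in the alpha to beta ratio was tested.

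Embryonic globins were nearly silent. Hbb-y and Hbb-bh2 (beta-type genes outside the adult pair) and Hba-x (the embryonic zeta-type gene) had 0 reads in all 6 libraries. For Hbb-bh1, 3 reads were found in Rpl22+/+ in all and 1 in Rpl22-/-. The adult pattern therefore held in both genotypes at this depth. Of the theta globins, Hbq1a had 3 and 5 reads, and Hbq1b had 1, 0 and 1 reads in Rpl22+/+ and 6, 12.6 and 22 in Rpl22-/-. Scaled for depth, the 41 Hbq1b reads against 2 gave a ratio of 18.4 with a 95% exact interval for counting error of 4.79 to 157. It was the only one of the 7 listed genes of this kind to pass the filter on low counts, and it did so only through its Rpl22-/- reads, so its call supports nothing here. It did not pass the filter when Rpl22-/- replicate 3 was left out. Ahsp, the alpha globin chaperone, was not analysed here.

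Heme synthesis begins with 5-aminolevulinate synthase, whose erythroid form is Alas2 and whose form in other cells is Alas1. Alas2 (chrX:149330371-149353634, plus strand) was at 1.19, 1.47 and 1.33 TPM in Rpl22+/+ and at 10.9, 12.6 and 7.26 TPM in Rpl22-/-. Its Rpl22-/- libraries had the same order as those of the globins, with no overlap and a log2 change of 2.88 ± 0.34 (SE). Its 2 main transcripts shared its reads unevenly. The one of 2037 bases took 43.7% to 70.7% in Rpl22+/+ and 57.6% to 80.8% in Rpl22-/-.

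Alas1 was the larger source of this enzyme's mRNA throughout. It stood at 269.7, 289 and 271 TPM in Rpl22+/+ and 1499.9, 1249 and 1344 TPM in Rpl22-/-. Alas1 rose by 2.18 ± 0.19 (SE) on the log2 scale (adjusted p = 0.000475, edgeR). In TPM it exceeded Alas2 197 to 227 times in Rpl22+/+ and 98.9 to 185 times in Rpl22-/-. Of the 16 listed genes for heme synthesis and its transporters, all passed the filter, 1 rose (Alas1) and 0 fell, with a median log2 change of 0.31. Another 3, named after their values were seen, had adjusted p-values under the threshold at changes under 1, namely Alad (0.95, adjusted p = 0.0274, edgeR), Uros (0.71, 0.0105) and the mitochondrial glycine carrier Slc25a38 (0.70, 0.00890). Fech, also chosen after its values were seen, which inserts iron into the ring in the last step, was at 18 to 20.1 TPM and 16.0 to 16.8 TPM (log2 change -0.36, adjusted p = 0.153, edgeR).

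**Figure D2:**
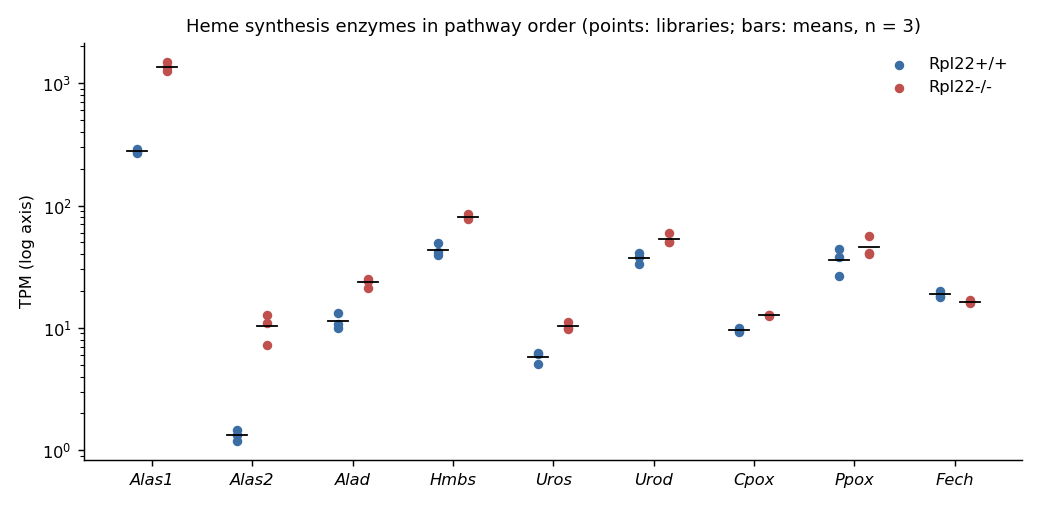
TPM on a log axis of the heme synthesis enzymes in pathway order, with each library as a point (blue Rpl22+/+, red Rpl22-/-) and the group mean as a bar (n = 3). Alas1 lies far above Alas2 in both genotypes, and both are higher in Rpl22-/-, while Fech is at 16.0 to 20.1 TPM in all 6 libraries.

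The anion exchanger Slc4a1, also called band 3, is the main integral protein of the red cell membrane. Slc4a1 (chr11:102239650-102257029, minus strand) was at 1.12, 1.56 and 1.20 TPM in Rpl22+/+ and 8.27, 10.2 and 11.0 TPM in Rpl22-/-. Its groups did not overlap and its log2 change was 2.79 ± 0.29 (SE), but in TPM replicate 3 was here the highest Rpl22-/- library. Of 20 listed genes of the membrane and its skeleton, none a member, all passed the filter, 11 rose, 0 fell and 9 did not pass the test, and their median log2 change was 1.99 against 0.07 over all genes.

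Rhd, an Rh blood group protein, rose by 2.55 ± 0.38 (adjusted p = 0.00376, edgeR) and Ermap, the Scianna blood group protein, by 2.49 ± 0.42 (adjusted p = 0.00586, edgeR). Epb42, or protein 4.2, which binds band 3, rose by 2.53 ± 0.31 (adjusted p = 0.00189, edgeR), on a gene sum that held 0.770 of the authors' mean. These 3 were low, at most 5.95 TPM in any library. The 9 listed membrane genes that did not pass ranged from -0.37 (Mpp1, adjusted p = 0.110, edgeR) to 1.91 (Add2, adjusted p = 0.0589, edgeR), both named after their values were seen.

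**Figure D3:**
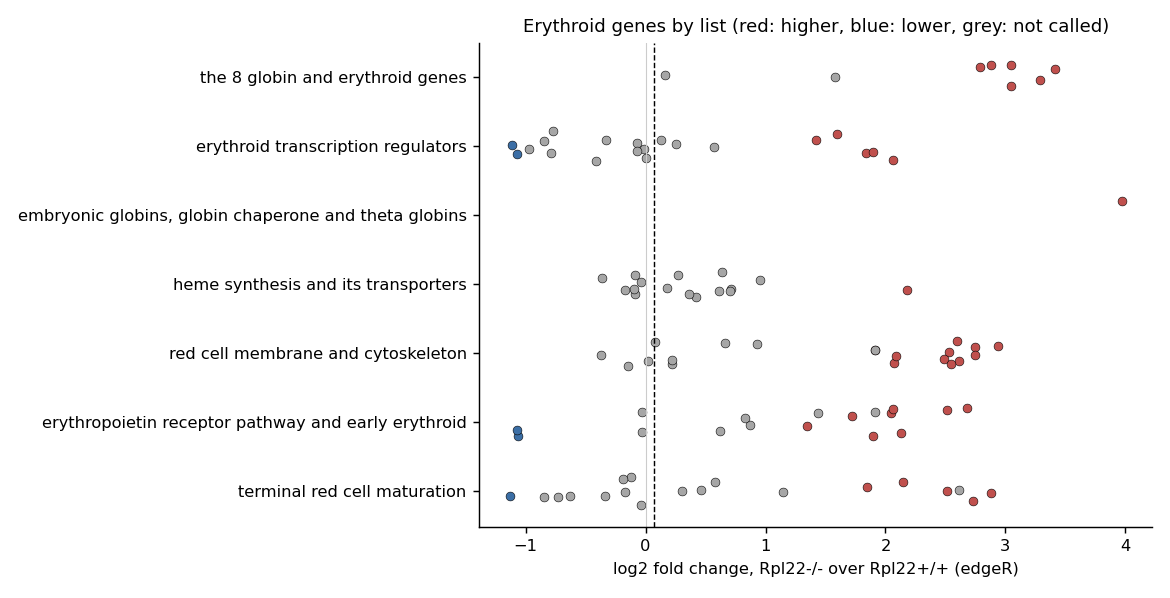
Log2 fold change of Rpl22-/- over Rpl22+/+ (edgeR) for each gene that passed the filter, by list, with calls in red (higher) and blue (lower), other genes in grey, and the median of all genes (0.07) as a dashed line. For the 8 members in the top row the colour is a description only. Red points gather between 1.35 and 3.97 (Hbq1b, whose call supports nothing here), and the membrane list has 11 of them and no blue point.

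The transcription factors of the group had few reads. Gata1 (chrX:7825499-7844310, minus strand) had 23, 19 and 17 reads in Rpl22+/+ and 9, 72 and 152 in Rpl22-/-. In TPM this was 0.248, 0.214 and 0.168 against 0.190, 0.576 and 1.11, so Rpl22-/- replicate 1 lay inside the Rpl22+/+ range. The log2 change of 1.58 ± 0.62 (SE) was not a call, and it was 0.86 without Rpl22-/- replicate 3. Klf1 (chr8:85628557-85631924, plus strand) had 18, 44 and 24 reads in Rpl22+/+ and 0, 126 and 0 in Rpl22-/-. The Klf1 sum here rests on 1 matched transcript and held 0.465 of the authors' base mean, so it is incomplete and its 0 reads set no limit for the gene. Its log2 change was 0.16 ± 1.55 (SE) and -7.81 without Rpl22-/- replicate 2, and no direction is given for it.

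The other listed transcription regulators moved both ways. Of 20, all passed the filter, 5 rose (Tal1, Lmo2, Gata2, Myb and Sox6) and 2 fell (Foxo3 and Bach1), with a median log2 change of -0.04. Another 4, named after their values were seen, had adjusted p-values under the threshold at smaller decreases, namely Nfe2 (-0.79, adjusted p = 0.0205, edgeR), Ikzf1 (-0.77, 0.0100), E2f2 (-0.85, 0.0171) and Klf3 (-0.97, 0.00222), and the Ikzf1 sum held 0.396 of the authors' base mean. Gata2, the factor of stem and early progenitor cells that GATA1 replaces during red cell maturation, rose from 1.82, 1.52 and 1.48 TPM to 7.29, 7.91 and 8.28 TPM (2.06 ± 0.20 SE, adjusted p = 0.000710, edgeR). Lmo2, which bridges these factors in a DNA-bound complex, was at 214 to 254 TPM and 680 to 814 TPM and rose by 1.6 ± 0.14 (adjusted p = 0.000517, edgeR). Lmo2 and Myb are also used by immature myeloid cells. Tal1, their partner in that complex, was at 0.166 to 0.194 TPM and 0.567 to 1.20 TPM (1.84 ± 0.43, adjusted p = 0.0212, edgeR), and lost the call without Rpl22+/+ replicate 1 (0.0748) or 3 (0.0774) or Rpl22-/- replicate 2 (0.0570) or 3 (0.0637). Gfi1b (0.25, adjusted p = 0.783, edgeR) and the GATA1 cofactor Zfpm1 (-0.01, adjusted p = 0.980, edgeR) did not pass, and both changed sign in some fits. Bach1, a heme-sensing repressor, fell by 1.07 ± 0.13 (adjusted p = 0.00163, edgeR) and Foxo3, a factor that induces antioxidant genes in erythroblasts, fell by 1.11 ± 0.15 (adjusted p = 0.00285, edgeR), and with no composition factor both lay just under the fold threshold (-0.95, adjusted p = 0.00386, and -0.97, adjusted p = 0.00110).

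Among 17 listed genes of the erythropoietin pathway and early erythroid cells, all of which passed the filter, 8 rose and 2 fell, with a median log2 change of 1.44. The 2 that fell, Stat5b and Steap3, were not calls with no composition factor or without Rpl22+/+ replicate 2, and Steap3 was also not a call without Rpl22+/+ replicate 3 or without any one Rpl22-/- library. Cish, a feedback inhibitor of cytokine signalling named after its values were seen, passed the adjusted p at an increase of 0.62 (adjusted p = 0.0283, edgeR). Epor, the erythropoietin receptor, was at 0.141, 0.172 and 0.259 TPM and at 0.534, 0.687 and 1.44 TPM. It rose by 2.05 ± 0.51 (adjusted p = 0.0250, edgeR) but missed the threshold without Rpl22+/+ replicate 1 (0.0841) or 3 (0.0665) or Rpl22-/- replicate 2 (0.0658) or 3 (0.0850). Erfe, the erythroblast hormone that lowers hepcidin, rose from 0.155, 0.248 and 0.200 TPM to 1.75, 1.69 and 1.71 TPM (2.68 ± 0.33, adjusted p = 0.00180, edgeR). Unlike the globins, Erfe was nearly even across the Rpl22-/- libraries. Tfr2, a transferrin receptor that also binds the erythropoietin receptor, rose by 1.90 ± 0.25 (adjusted p = 0.00223, edgeR), Hemgn, a nuclear protein of erythroid cells, by 1.72 ± 0.27 (adjusted p = 0.00482, edgeR), and Kit, the stem cell factor receptor, by 1.35 ± 0.21 (adjusted p = 0.00453, edgeR). Tfrc, the transferrin receptor that brings iron to erythroblasts and to dividing cells, was at 30.6, 6.51 and 26.8 TPM and at 49.2, 24.8 and 41.1 TPM. Its groups overlapped and it did not pass (0.87 ± 0.48, adjusted p = 0.233, edgeR), but it was a call with the replicate number as a block (1.08, adjusted p = 0.0456, edgeR).

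Of 20 listed genes of terminal red cell maturation, 19 passed the filter, 5 rose and 1 fell, with a median log2 change of 0.30. Trim10, a RING finger protein of erythroid cells, rose by 2.73 ± 0.26 (adjusted p = 0.000657, edgeR) and Fhdc1, a formin-domain protein, by 2.15 ± 0.23 (adjusted p = 0.00108, edgeR). Mkrn1, a ubiquitin ligase, was at 101 to 108 TPM and 47.9 to 51.5 TPM, fell by 1.13 ± 0.18 (adjusted p = 0.00445, edgeR) and lay at the fold threshold with no composition factor (-0.99, adjusted p = 0.00131) and without Rpl22+/+ replicate 2 (adjusted p = 0.00118). Bnip3l (-0.73, adjusted p = 0.00538, edgeR) and Blvrb (-0.85, adjusted p = 0.0457, edgeR), named after their values were seen, also passed the adjusted p at smaller decreases.

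Over all these lists, with each gene counted once and no member among them, 91 of 98 genes were tested, of which 30 rose and 5 fell. Hbq1b is counted in the 30 here and below, although its call supports nothing. The background was 8.93% of all genes higher and 8.54% lower. Leaving out Rpl22+/+ replicate 2 kept 32 of these 35 calls, and leaving out any other library kept 28 to 33, the fewest without replicate 3 of either genotype. With limma on log2(TPM + 1), 12 were called higher and 13 of the 35 calls were kept. None of the 5 lower calls (Bach1, Foxo3, Mkrn1, Stat5b and Steap3) was a call with no composition factor, where 0 listed genes were lower, and 1 was lower on each log2(TPM) scale.

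The libraries of Rpl22-/- differed among themselves, and not in the same way for all these genes. In CPM, replicate 3 held 0.548 of the mean of replicates 1 and 2 for the summed globins and 0.544 of it for Alas2. For Slc4a1 that ratio was 1.16, and for Gata1 it was 2.98. Among the 30 other listed genes called higher, 19 (63.3%) had their highest Rpl22-/- value in replicate 3. The share was 22.6% of all 1488 genes called higher and 23.5% of all genes tested. Not all 30 are particular to red cells, since Alas1, Lmo2, Myb, Gata2 and Kit are among them. Over all 91 listed genes tested, replicate 3 was highest in 40.7% and replicate 2 in 42.9%. The median log2 ratio of replicate 3 to the mean of replicates 1 and 2 was 0.07 over the 91 and 0.48 over the 30. In 9 of the 30 (30.0%) replicate 3 was over 2-fold above the mean of the other Rpl22-/- libraries, against 2.49% of all genes called higher. Among these 9, named after their values were seen, were Tal1, Ermap, Rhag, Kel, Aqp1, Epor, Car2 and Cldn13. These stood highest in the library in which globins and Alas2 stood lowest, while 7 of the 30 (23.3%) were themselves lowest there, against 37.0% of all genes called higher and 27.4% of all genes tested. The labels give nothing that sets this library apart, 3 libraries allow no test of it, and what moves with it was not tested.

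**Figure D4:**
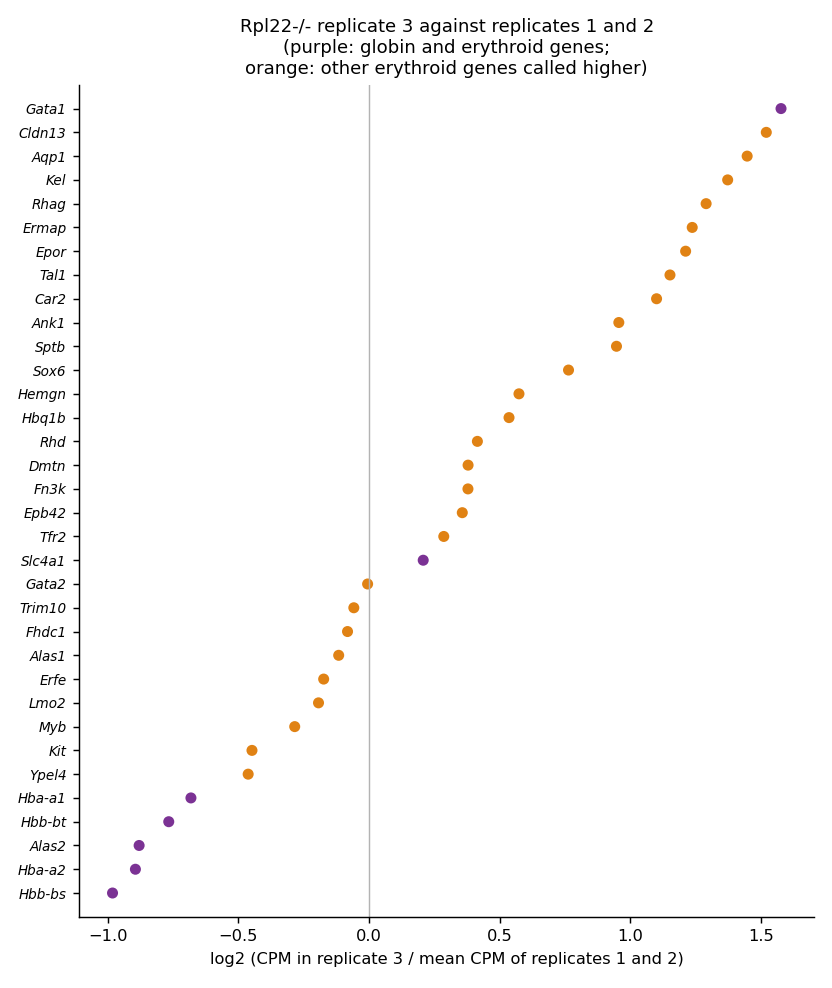
Log2 ratio of the CPM in Rpl22-/- replicate 3 to the mean CPM of replicates 1 and 2, for 7 members (purple, without Klf1, which had 0 reads in replicates 1 and 3) and 27 of the other listed genes called higher (orange). Globins and Alas2 lie at the low end, and Gata1, Cldn13, Aqp1 and Kel at the high end.

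Apart from Klf1, whose sum is incomplete, the order of the members' mean levels per length differed between genotypes only in Hbb-bs and Hba-a2, which changed places. In Rpl22+/+ the order by mean TPM was Hbb-bs (105), Hba-a2 (92.3), Hba-a1 (50.3), Hbb-bt (17.1), Alas2 (1.33), Slc4a1 (1.29), Klf1 (0.332) and Gata1 (0.210). In Rpl22-/- it was Hba-a2 (957), Hbb-bs (918), Hba-a1 (451), Hbb-bt (195), Alas2 (10.3), Slc4a1 (9.82) and Gata1 (0.626), with Klf1 at 0 in 2 libraries. Alas2 and Slc4a1 overlapped in both genotypes, and Hbb-bs and Hba-a2 overlapped in Rpl22-/- but not in Rpl22+/+. Globin TPM per Alas2 TPM was 193 to 207 in Rpl22+/+ and 229 to 263 in Rpl22-/-. Per Slc4a1 TPM it was 182 to 221 and 151 to 346.

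Of the whole table, Alas2 had the profile over the 6 libraries nearest to that of the summed globins, with a root mean square difference of 0.15 in centred log2 CPM among 16652 genes ranked. Next came Gm18711 (0.19), a predicted gene with 0 TPM in 2 Rpl22+/+ libraries, the adenylate kinase gene Ak1 (0.20), the adhesion molecule gene Mcam (0.21) and the chitinase gene Chit1 (0.21). The profiles were computed with a prior count of 2, which sets the Rpl22+/+ values of Gm18711 (0, 0.0138 and 0 CPM). Gm18711 passed the filter only through its Rpl22-/- reads, and its fitted log2 change was 5.08, so its rank supports nothing here. Mcam was at 2.89 to 3.11 TPM in Rpl22+/+ and 26, 22.7 and 16.8 TPM in Rpl22-/-. Slc4a1 came at rank 109 (0.41). Mpo, Ctsg and Prtn3, which encode proteins of neutrophil primary granules and were named after their values were seen, were among the 15 nearest at 0.25, 0.25 and 0.27. Mpo was at 641 to 874 TPM in Rpl22+/+ and at 7266, 6346 and 5677 TPM in Rpl22-/-. Nearness over 6 libraries in 2 groups weighs the group difference heavily.

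Marker genes of other cells are given beside the globin result, as levels summed over each list. Platelets and megakaryocytes, which share GATA1 with red cells, were uneven in their defining genes. Pf4, Ppbp, Gp1ba and Gp6, named after their values were seen, each stayed at or under 0.132 TPM in every library. Gp9, a platelet surface glycoprotein, was at 2.52 to 4.05 TPM in Rpl22+/+ and 4.08 to 4.44 TPM in Rpl22-/- (log2 change 0.28, adjusted p = 0.568, edgeR). The 13 listed genes summed to 16.6 to 19.8 TPM in Rpl22+/+ and 11.1 to 13.7 TPM in Rpl22-/-. Itgb3, which myeloid cells also express, made up most of the first sum (10.7 to 11.0 TPM) but only 2.37 to 2.51 TPM of the second. Of the 7 that passed the filter, Vwf rose (0.138 to 0.210 TPM and 1.92 to 2.71 TPM) and Itgb3 fell, and Clec1b was at 0.311 to 3.83 TPM and 0.810 to 2.62 TPM.

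Eosinophil, basophil and mast cell genes, 18 in the list, summed to 303 to 323 TPM in Rpl22+/+ and 23.6 to 32.2 TPM in Rpl22-/-. Hdc, histidine decarboxylase, made up nearly all of the first sum (268 to 279.6 TPM against 1.21 to 2.67 TPM). Of 13 that passed the filter, 0 rose and 5 fell, and the mast cell proteases Tpsb2, Tpsab1 and Mcpt4 had 0 reads. The basophil protease Mcpt8 was at 9.28 to 16.6 TPM and 8.16 to 13.2 TPM, and the eosinophil granule protein Prg2 at 4.83 to 8.02 TPM and 6.08 to 8.75 TPM. Genes of the macrophages that surround erythroblasts and clear red cells, 15 in the list, summed to 108 to 126 TPM and 112 to 119 TPM. Of 14 that passed the filter, 7 rose (Spic, Cd5l, C1qa, C1qb, C1qc, Mertk and Marco) and 1 fell (Slc40a1, the iron exporter), while Hmox1, heme oxygenase, was at 30.7 to 43.0 TPM and 29.8 to 44.5 TPM.

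B cell genes as a sum were above the summed globins in Rpl22+/+ (246 to 284 TPM) and below them in Rpl22-/- (1662 to 3042 TPM). The 8 listed summed to 432 to 546 TPM in Rpl22+/+ and 306 to 419 TPM in Rpl22-/-, with Cd79a at 157 to 217 TPM and 106 to 160 TPM, and 0 were called. The 10 T and NK cell genes summed to 69.3 to 81.5 TPM and 264 to 347 TPM, and Nkg7 alone made up 245 to 327 TPM of the Rpl22-/- sum. Of the 10, 3 rose (Klrb1c, Ncr1 and Nkg7) and 6 fell (Cd3d, Cd3e, Cd3g, Cd247, Cd4 and Lck), with a median log2 change of -1.14. The change was 3.01 for Nkg7 (adjusted p = 0.0004, edgeR), -2.7 for Cd3d (adjusted p = 0.000329) and -1.05 for Lck (adjusted p = 0.0103). The 9 stromal and endothelial genes summed to 23.6 to 26.6 TPM and 33.8 to 39.4 TPM, mostly Pecam1. Among 7 that passed the filter, 2 rose (Kdr and Lepr) and 1 fell (Pdgfrb). Pecam1 (log2 change 0.5, adjusted p = 0.0513, edgeR), Col1a1 (-0.49, 0.281) and Cdh5 (-0.65, 0.216) were not called. The sorted myeloid genes, 10 in the list, summed to 117110 to 122985 TPM and 105699 to 125870 TPM, with Mpo and Elane higher and Itgam and Ly6g lower. The part of these cells in the globin result was not tested.

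**Figure D5:**
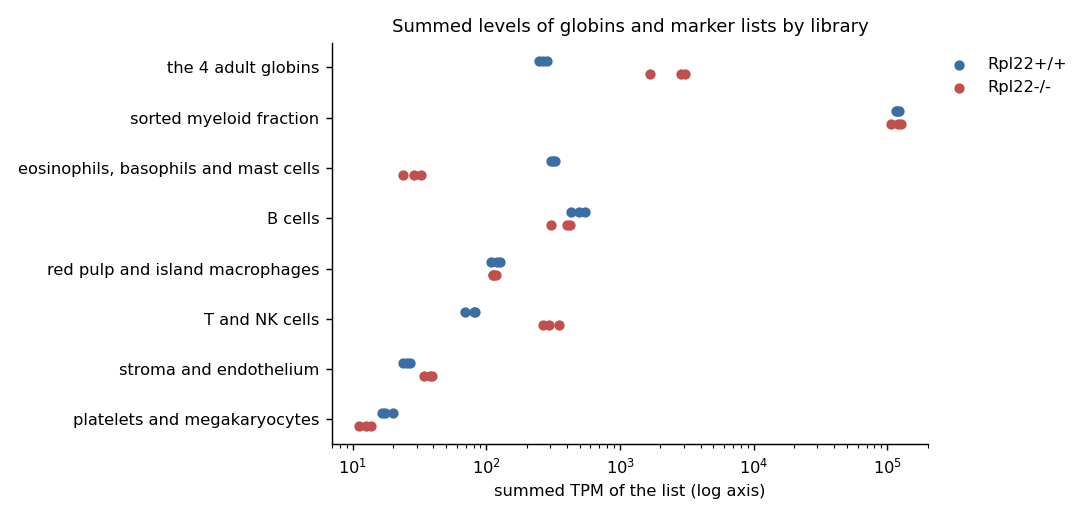
Summed TPM (log axis) of the 4 adult globins and of 7 marker lists, with each library as a point (blue Rpl22+/+, red Rpl22-/-). The sums of the globins, the T and NK list and the stromal list are higher in Rpl22-/- without overlap. Those of the eosinophil, basophil and mast cell, B cell and platelet lists are lower without overlap, and the macrophage and myeloid sums overlap. The T and NK sum is mostly Nkg7 in Rpl22-/-, while 6 of its 10 genes were called lower.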

How the data were processed

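The authors sequenced stranded poly(A) libraries, used Trimmomatic for trimming and Salmon to quantify transcripts (versions and transcript set not given in the sources used here; the submitters' notes name GRCm39). Per library, the authors deposited each transcript's estimated count (not a whole number), TPM (scaled for effective length, keeping no depth) and transcript lengths. A further table the authors deposited holds a base mean signal, their mean of size-factor-scaled counts over all libraries, with gene positions on GRCm39, used here, and their own fold changes and p-values, not used.

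Transcripts were summed to genes with GENCODE vM21, matched on identifiers without version. Of 276623 transcripts 136036 matched, carrying 97.96% to 98.14% of reads. Sums were rounded to whole numbers. Over 15409 genes the median ratio of these sums, scaled alike, to the authors' base mean was 0.982, and 547 genes lay outside 0.8 to 1.25, among them Klf1 and, of the listed genes, Lyl1, Ikzf1 and Epb42.

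Genotypes were compared over all genes with the quasi-likelihood test of edgeR 4.0.16 in R 4.3.3 (TMM, filterByExpr, genotype as the only term, Benjamini-Hochberg adjustment). Called genes had an adjusted p under 0.05 and a change over 1 in log2 units either way. Standard errors are those implied by the F statistic. The scripts were tested on simulated data. Alternatives used DESeq2 1.42.0, limma 3.58.1, other scalings and filters, log2(TPM + 1) and log2(TPM + 0.1), the replicate number as a block, and each library left out. Globin shares of reads carry 95% Wilson intervals (scipy 1.17.1). Figures used matplotlib 3.10.9. Promoters came from RefSeq (GRCm38.p6) and positions of the builds were never mixed. Every pair of libraries of a genotype differed beyond sampling noise.

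The members, gene lists and marker lists were chosen with earlier results of these data known. Genes named are the members, erythroid genes fixed by name (among them Ahsp, Epor, Tfrc, Hemgn, Tal1, Gfi1b, Zfpm1, Gata2), up to 4 called genes with the smallest p per erythroid list, the 5 profiles nearest to the summed globins and the 3 most abundant genes per marker list, and others only where given as a count's members or marked as chosen after their values were seen. A few genes named by it are left unreported here.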

Additional observations from a re-analysis of the deposited data

How the results depend on the processing

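The higher direction of the 4 globins, Alas2, Slc4a1 and Gata1 held in every alternative fitted. On log2(TPM + 1), which understates low genes, Alas2 and Slc4a1 were both at 2.24 and Gata1 at 0.39. Klf1 was at -3.00 with limma-voom and -7.81 without Rpl22-/- replicate 2. The log2 ratio of summed globin CPM was 3.15, and 3.13 to 3.30 with other scalings. Of listed erythroid genes, 12 were called higher and 1 lower on log2(TPM + 1), 1 lower on log2(TPM + 0.1) and 0 lower with no composition factor, where the median of all genes was 0.19. Over all genes, log2(TPM + 1) gave 906 higher and 699 lower. Leaving out each library gave 1031 to 1708 higher and 1177 to 1723 lower over all genes, and 24 to 31 higher and 4 to 6 lower among listed erythroid genes. Genes near 0 changed sign: Gfi1b (-0.44 without Rpl22-/- replicate 3, up to 0.59), Zfpm1 (0.13 with no composition factor, 0.03 with no filter and with voom, 0.15 without Rpl22+/+ replicate 2, 0.23 without Rpl22-/- replicate 1, -0.21 without replicate 3), Clec1b (0.04, down to -1.15) and Mcpt8 (0.05, down to -0.36) without Rpl22+/+ replicate 1, Prg2 (-0.12 without Rpl22+/+ replicate 3, -0.07 without Rpl22-/- replicate 2, up to 0.28) and Hmox1 (0.08 without Rpl22+/+ replicate 2, down to -0.34). The cause was not tested.

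Replicate numbers were not taken to pair the libraries, and whether they do is uncertain. Deviations of same-numbered libraries correlated at 0.479, 0.634 and 0.0974 across all genes tested and at 0.57, 0.715 and 0.129 across the 13202 genes averaging 50 counts or more, while Rpl22+/+ replicate 3 correlated better with Rpl22-/- replicate 1 (0.357 and 0.43). With the replicate number as a block, 33 listed erythroid genes were called higher and 5 lower, and all 35 calls were kept. In that fit Tfrc passed (adjusted p = 0.0456, edgeR), and the globin log2 ratio was 3.12. Depth limits Gata1, Epor, Tal1 and the embryonic globins, at 0 to 52 reads in each Rpl22+/+ library, Klf1 rests on an incomplete sum, and the globin split within each pair is uncertain.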
